A study of Mus musculus with 10 samples.

Results

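The genes described here are 41 genes of the cell cycle and of DNA replication, measured by bulk RNA sequencing in 10 mammary tumour libraries, 1 from each of 10 female mice of the FVB/N strain. They were taken from the deposited gene table by symbol, each symbol matched 1 gene, and the table holds 26063 genes. All 41 passed edgeR's filter on low counts, as did 14915 genes in all. The mice fell into 2 genotypes of 5 tumours each, EIC/WT (called EIC) and 16IC/WT (called 16IC). Every mouse received doxycycline at 2 mg/ml, an antibiotic widely used to switch on tetracycline-controlled transgenes, and the tumours were frozen at end point. The labels do not spell out EIC or 16IC, and the series title names a HER2 splice variant and ENPP1. The promoter or cell type that drives the alleles, and the age of the mice, do not appear in the sources used here. Each library carries its own mouse identifier, and the number after a genotype only tells its tumours apart. The sample titles speak of tumours from a mouse and do not say how many a library holds. A library is called a tumour here. P-values set the difference between the genotypes against the spread between mice of the same genotype.

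A dividing cell copies its DNA in S phase and separates the copies in mitosis. Before S phase, CDC6 and CDT1 load the ring of MCM2 to MCM7 onto DNA, which becomes the replicative helicase, and E2F transcription factors drive many genes of this step. The genes of mitosis are switched on later, largely through the MuvB complex with B-MYB and FOXM1, which reads a short promoter element called the CHR, often next to CCAAT boxes bound by NF-Y. In tumours, summed RNA of these genes is commonly read as a sign of how many cells divide. In bulk tissue, fewer dividing cells and less RNA per dividing cell cannot be told apart.

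Promoter stretches of 7 members are shown because the replication and mitotic genes, compared below, carry these elements in differing shares, with exceptions in both. They were chosen after the matches were known, to show the words in place. Each line runs from 150 bases before the RefSeq start (GRCm38.p6) to the base before it, 5′ to 3′ on the gene's strand. Capitals mark an E2F word (TTTCCCGC, TTTCGCGC, TTTGCCGC or TTTGGCGC), a CHR word (TTTGAA or TTTAAA) or CCAAT, searched on both strands, and run on where words overlap.
Mcm6: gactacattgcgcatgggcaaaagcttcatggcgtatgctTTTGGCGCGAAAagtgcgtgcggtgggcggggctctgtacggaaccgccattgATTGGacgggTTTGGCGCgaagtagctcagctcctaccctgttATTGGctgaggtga
Mcm5: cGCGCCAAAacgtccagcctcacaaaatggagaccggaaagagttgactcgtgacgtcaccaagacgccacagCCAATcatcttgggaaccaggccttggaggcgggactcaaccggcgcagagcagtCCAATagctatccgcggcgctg
Cdk1: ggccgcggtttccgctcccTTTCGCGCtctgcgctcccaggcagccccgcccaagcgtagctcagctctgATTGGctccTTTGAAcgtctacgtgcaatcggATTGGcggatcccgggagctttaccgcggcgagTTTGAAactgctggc
Cdc20: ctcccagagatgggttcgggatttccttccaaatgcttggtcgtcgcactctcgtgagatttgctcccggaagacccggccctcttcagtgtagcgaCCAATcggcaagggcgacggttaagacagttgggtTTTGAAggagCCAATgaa
Plk1: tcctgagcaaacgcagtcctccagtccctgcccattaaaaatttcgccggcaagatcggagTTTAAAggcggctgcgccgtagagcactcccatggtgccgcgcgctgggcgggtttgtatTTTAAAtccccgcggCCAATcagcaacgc
Kif11: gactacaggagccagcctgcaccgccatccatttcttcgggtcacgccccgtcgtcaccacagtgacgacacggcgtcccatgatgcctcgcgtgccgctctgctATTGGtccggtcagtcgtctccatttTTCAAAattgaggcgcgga
Mki67: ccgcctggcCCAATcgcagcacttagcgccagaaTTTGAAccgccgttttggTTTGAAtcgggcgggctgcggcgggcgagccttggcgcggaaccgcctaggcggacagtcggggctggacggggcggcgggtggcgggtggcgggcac
The replication gene stretches lie at chr1:128359706-128359855 (Mcm6, minus strand) and chr8:75109359-75109508 (Mcm5, plus strand). Those of the mitotic genes lie at chr10:69352913-69353062 (Cdk1, minus strand), chr4:118437344-118437493 (Cdc20, minus strand), chr7:122159285-122159434 (Plk1, plus strand) and chr19:37376232-37376381 (Kif11, plus strand), and that of Mki67 at chr7:135716380-135716529 (minus strand). The last 26 bases of Cdk1 and 9 of Cdc20 lie inside the gene span of the deposited table, whose start differs from RefSeq's. Mcm6 held 3 E2F words and Mcm5 held 1, with CCAAT and no CHR word in these stretches. Cdc20, Plk1, Kif11 and Mki67 held CHR words and CCAAT and no E2F word, while Cdk1 held all 3 kinds.

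Of the 41 members, 34 had a window of 300 bases (250 before the start, 50 after it) in the RefSeq promoter table. Ccna2, Aurkb, Mcm4, Foxm1, Kif20a, Tpx2 and Gins2 had none. The replication members are the genes of licensing, fork and nucleotide supply, and the mitotic members those of cyclins, kinases, spindle and exit. An E2F word stood in 6 of the 12 replication members with a window, in 1 of 18 mitotic members (5.56%) and in 2.60% of all 27025 genes of the table. A CHR word stood in 4 of 12 replication members (33.3%), in 15 of 18 mitotic members (83.3%) and in 30.6% of all genes. Those 4 were Mcm2, Mcm5, Rrm2 and Tk1, and the CHR word of Mcm5 lies outside the stretch shown. CCAAT stood in 8 of 12 (66.7%), 15 of 18 (83.3%) and 41.1% of all genes. CHR and CCAAT together stood in 3 of 12 (25.0%), 14 of 18 (77.8%) and 13.4%. A match is a description of letters and not of a factor's binding.

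Total counts ran from 14813940 to 16947400 per library, and the share of mitochondrial counts from 0.549% to 1.41%. The 10 epithelial markers summed to 4124 to 6805 CPM over the 10 tumours, and Epcam, Krt8 and Krt18 each stood at 556 CPM or more in every tumour. Krt19 was the exception, at 0 counts in 16IC 4, at 2.79, 3.52 and 3.04 CPM in EIC 2, 16IC 1 and 16IC 3, and at 233 to 445 CPM in the other 6, and Krt7 ran from 19.4 to 524 CPM. CPM are counts divided by the library's total count, itself scaled between libraries by the TMM method. RNA of other tissues differed between tumours. Skeletal muscle markers (7 genes) summed to 2.63 to 2347 CPM in EIC and 1.09 to 369 CPM in 16IC, fibroblast markers (10 genes) to 2211 to 8282 and 487 to 4127 CPM, and adipocyte markers (6 genes) to 25.9 to 315 and 10.9 to 358 CPM. Macrophage markers (8 genes) summed to 329 to 614 and 253 to 604 CPM, and endothelial markers (8 genes) to 151 to 252 and 84.8 to 241 CPM. Milk protein markers (7 genes) ranged from 4148 to 34096 CPM in EIC and from 15586 to 51850 CPM in 16IC. The 11 lymphocyte markers summed to no more than 31.8 CPM in any tumour, with the T cell genes Cd3d, Cd3e and Cd3g each at 0 counts in 2 libraries.

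No member passed the test between genotypes. edgeR's quasi-likelihood test, adjusted over all 14915 genes, called 0 of the 41 at an adjusted p under 0.05 and 0 of all genes (0% of those tested). The smallest adjusted p among members was 0.289. DESeq2, which called 356 (2.11%) of the 16838 genes it gave an adjusted p, and limma voom, which called none, also called 0 members. At an unadjusted p under 0.05 edgeR found 3 members (7.32%), Cenpe, Cdc20 and Top2a, all lower in 16IC. The same threshold took 13.1% of all tested genes, 6.29% as lower and 6.84% as higher. The members' share was below the 13.1% of both directions and near the 6.29% taken as lower. In 0 of the 41 did the tumours of the genotypes separate without overlap, against 2.58% of all genes.

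The direction of the differences was uneven. The log2 difference of 16IC over EIC was below 0 for 33 of 41 members (80.5%), against 52.3% of all genes tested. Its median was -0.24 over the members and -0.02 over all genes tested. The members vary together between tumours, so this count does not stand for 41 separate measurements. The count below 0 was 26 without EIC 4 and 39 without 16IC 3, the lowest and highest with 1 tumour left out, and the median was then -0.10 and -0.49. The plot of differences with their 95% intervals shows intervals that span 0 for 38 of the 41.

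**Figure D1:**
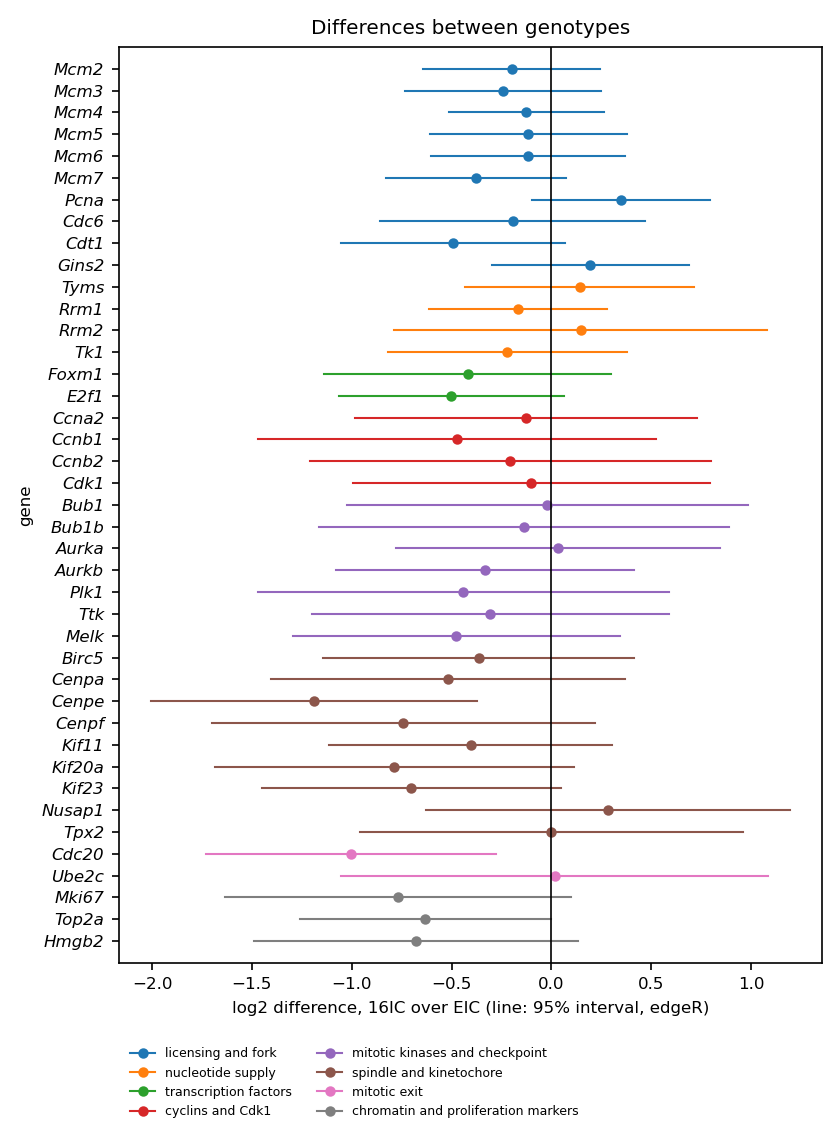
Log2 difference of 16IC over EIC (horizontal axis) for each of the 41 genes, ordered and coloured by role. Points are edgeR estimates and lines their 95% intervals (5 tumours a genotype). Intervals of Cenpe, Cdc20 and Top2a lie below 0, and the other 38 span 0.

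Of the 10 licensing and fork genes, 2 had a positive and 8 a negative log2 difference, with a median of -0.16. The helicase subunit genes Mcm2 to Mcm7 all had negative estimates, from -0.38 (Mcm7) to -0.12 (Mcm5 and Mcm6). Mcm6 stood at 66.0, 64.4, 75.0, 119.7 and 65.2 CPM in EIC 1 to 5 and at 58.2, 78.5, 99.4, 65.0 and 59.1 CPM in 16IC 1 to 5. EIC 4 was highest of all 10 and the other tumours of the genotypes overlapped. With means of 78.1 ± 23.6 and 72.0 ± 17.3 CPM (SD, n = 5) in EIC and 16IC, the log2 difference was -0.12 with a 95% interval of -0.60 to 0.37 (edgeR adjusted p 0.829). Mcm3 stood at 48.1, 39.5, 62.9, 85.7 and 41.6 CPM in EIC 1 to 5 and at 39.0, 53.2, 55.2, 41.9 and 45.7 CPM in 16IC 1 to 5. EIC 4 and EIC 3 were the highest, and every 16IC tumour lay inside the range of EIC except 16IC 1, just below it. The log2 difference of Mcm3 was -0.24 (95% interval -0.73 to 0.25, edgeR adjusted p 0.636), from means of 55.6 ± 19.2 and 47.0 ± 7.03 CPM (SD, n = 5). Mcm7, whose exons overlap other annotated genes over 12.6% of their length, had the largest difference of the 6, with a 95% interval from -0.83 to 0.08. Mcm7 stood at 77.5, 97.6, 134, 122 and 71.4 CPM in EIC 1 to 5 and at 58.0, 86.4, 92.6, 68.3 and 81.7 CPM in 16IC 1 to 5. EIC 3, EIC 4 and EIC 2 were above all 16IC tumours, and 16IC 1 was lowest. Mcm2 stood at 47.1, 44.7, 57.1, 82.5 and 42.4 CPM in EIC 1 to 5 and at 39.3, 55.8, 54.9, 46.8 and 42.0 CPM in 16IC 1 to 5. Again EIC 4 was highest and 16IC 1 lowest, and 16IC 5, lowest for most members, stood close to EIC 5. The loading factors Cdc6 and Cdt1 had log2 differences of -0.19 (SE 0.30) and -0.49 (SE 0.25).

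Pcna, the sliding clamp that holds DNA polymerase on its template, had the largest positive difference of the members. Pcna stood at 138, 105, 119, 180.2 and 142 CPM in EIC 1 to 5 and at 139.8, 172, 232, 199.9 and 128 CPM in 16IC 1 to 5. The highest level was in 16IC 3 and the lowest in EIC 2, and the ranges overlapped. The means were 137 ± 28.5 and 174 ± 42.9 CPM (SD, n = 5), a log2 difference of 0.35 (SE 0.20, edgeR adjusted p 0.468). Gins2, a subunit of the GINS complex that works with the helicase, had a log2 difference of 0.19 (SE 0.22), but 67.3% of its exon bases are shared with Gse1 on the opposite strand, so its counts are uncertain. Gins2 stood at 11.3, 17.5, 15.8, 21.6 and 13.1 CPM in EIC 1 to 5 and at 15.5, 19.3, 21.4, 22.04 and 12.6 CPM in 16IC 1 to 5. The highest levels were in 16IC 4, EIC 4 and 16IC 3, the lowest in EIC 1, and the genotypes overlapped.

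The 4 genes of nucleotide supply had 2 positive and 2 negative estimates, with a median of -0.01. Rrm1 and Rrm2 encode the subunits of ribonucleotide reductase, Tyms thymidylate synthase and Tk1 thymidine kinase. Rrm2 stood at 37.4, 39.2, 66.0, 65.6 and 39.6 CPM in EIC 1 to 5 and at 42.5, 41.7, 120.01, 51.7 and 18.3 CPM in 16IC 1 to 5. Among 16IC tumours the level in 16IC 3 was 6.55 times that in 16IC 5, and all EIC tumours lay between them. With means of 49.5 ± 14.9 and 54.9 ± 38.5 CPM (SD, n = 5) in EIC and 16IC, the log2 difference was 0.15 with a 95% interval of -0.79 to 1.08 (edgeR adjusted p 0.894). Rrm1 (-0.17, SE 0.20), Tyms (0.14, SE 0.26) and Tk1 (-0.22, SE 0.27) also had 95% intervals that span 0. Tyms stood at 27.5, 23.3, 32.5, 42.6 and 23.5 CPM in EIC 1 to 5 and at 25.1, 32.8, 46.6, 40.5 and 19.7 CPM in 16IC 1 to 5. The tumours high for Tyms were 16IC 3, EIC 4 and 16IC 4, and the estimate was below 0 without 16IC 3.

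The transcription factor genes E2f1 and Foxm1 had log2 differences of -0.50 (SE 0.26) and -0.42 (SE 0.33), with adjusted p of 0.417 and 0.578 by edgeR. E2f1 stood at 22.2, 14.8, 24.3, 40.4 and 24.1 CPM in EIC 1 to 5 and at 15.9, 19.7, 23.4, 15.7 and 14.2 CPM in 16IC 1 to 5. EIC 4 stood far above the other 9 tumours, which ran together. E2F1 drives entry into S phase, and FOXM1 the later mitotic programme. Foxm1 stood at 26.9, 24.1, 47.9, 48.5 and 24.7 CPM in EIC 1 to 5 and at 28.1, 18.7, 38.3, 30.7 and 12.9 CPM in 16IC 1 to 5. The high tumours were EIC 4 and EIC 3, followed by 16IC 3, and 16IC 5 was lowest.

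Cdk1, the kinase that drives entry into mitosis, and its 3 cyclin genes had negative estimates, with a median of -0.17, and a wide spread among 16IC tumours. Cdk1 stood at 45.9, 53.8, 73.5, 84.6 and 44.3 CPM in EIC 1 to 5 and at 41.1, 40.1, 103, 78.7 and 18.9 CPM in 16IC 1 to 5. The tumour 16IC 3 was the highest of all 10 and 16IC 5 the lowest. The log2 difference of Cdk1 was -0.10 (95% interval -0.99 to 0.79, edgeR adjusted p 0.927), from means of 60.4 ± 17.8 and 56.4 ± 33.9 CPM (SD, n = 5). Ccnb1 stood at 39.7, 31.8, 65.1, 72.2 and 32.5 CPM in EIC 1 to 5 and at 24.2, 23.9, 69.2, 45.3 and 11.1 CPM in 16IC 1 to 5. The high tumours were EIC 4, 16IC 3 and EIC 3, with 16IC 5 again lowest. The means were 48.3 ± 19.0 and 34.7 ± 22.9 CPM (SD, n = 5), a log2 difference of -0.47 (SE 0.45, edgeR adjusted p 0.649). Ccna2 and Ccnb2, which encode cyclins A2 and B2, had log2 differences of -0.13 (SE 0.39) and -0.21 (SE 0.45). The exons of Ccna2 overlap Exosc9 on the opposite strand over 12.5% of their length.

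Of the 7 mitotic kinase and checkpoint genes, 1 had a positive estimate, with a median of -0.31, and estimates ran from -0.48 (Melk) to 0.03 (Aurka). Plk1 stood at 25.4, 31.2, 61.3, 49.8 and 21.1 CPM in EIC 1 to 5 and at 25.9, 16.6, 49.1, 39.4 and 8.08 CPM in 16IC 1 to 5. Levels of this Polo-like kinase gene were highest in EIC 3 and lowest in 16IC 5, and the genotypes overlapped over most of the range. With means of 37.8 ± 17.1 and 27.8 ± 16.6 CPM (SD, n = 5) in EIC and 16IC, the log2 difference was -0.44 with a 95% interval of -1.47 to 0.59 (edgeR adjusted p 0.682). Aurka stood at 21.5, 20.9, 36.2, 34.5 and 18.8 CPM in EIC 1 to 5 and at 22.9, 18.4, 46.5, 35.9 and 11.2 CPM in 16IC 1 to 5. The Aurora A kinase gene, which serves spindle assembly, had its highest and lowest levels in 16IC 3 and 16IC 5. Its log2 difference of 0.03 (SE 0.37) was below 0 with total-count scaling and with limma voom. Aurkb stood at 24.3, 19.6, 34.8, 43.4 and 21.2 CPM in EIC 1 to 5 and at 15.3, 23.2, 37.9, 25.9 and 11.5 CPM in 16IC 1 to 5. EIC 4 was highest for this gene of the chromosomal passenger complex, and the log2 difference was -0.33 (SE 0.34). Melk, a kinase gene, had 17.5 ± 9.44 CPM in the EIC tumours against 12.6 ± 2.83 CPM in 16IC (SD, n = 5 each). The spindle checkpoint genes Bub1, Bub1b and Ttk had log2 differences of -0.02, -0.14 and -0.31, with SEs of 0.45, 0.46 and 0.40. The 95% intervals of all 7 genes of this group span 0.

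The 9 spindle and kinetochore genes had 2 estimates above 0 and 7 below, with a median of -0.52, and held the largest negative one. Cenpe encodes a kinesin that carries chromosomes to the middle of the spindle and lies at 135212537 to 135273611 on chromosome 3, plus strand (GRCm38, ENSMUSG00000045328). Cenpe stood at 22.4, 19.3, 50.5, 32.1 and 15.6 CPM in EIC 1 to 5 and at 14.03, 8.91, 19.6, 11.9 and 6.97 CPM in 16IC 1 to 5. EIC 3 was the highest, and 4 of the 5 16IC tumours lay below every EIC tumour, while 16IC 3 lay above EIC 2 and EIC 5. The log2 difference of Cenpe was -1.19 (95% interval -2.01 to -0.37, edgeR adjusted p 0.289), from means of 28.0 ± 13.99 and 12.3 ± 4.89 CPM (SD, n = 5). DESeq2's adjusted p was 0.0711. The authors' deposited table gives Cenpe the same adjusted p and a log2 fold change of -1.19. Both rest on the same counts, so the deposited values are no separate evidence. DESeq2 called Cenpe without EIC 2 (adjusted p 0.0372), without EIC 5 (0.0466) or without 16IC 3 (0.0339).

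The kinesin genes Kif20a and Kif23, which act in cytokinesis, had log2 differences of -0.79 (SE 0.41) and -0.70 (SE 0.34), and Kif11, whose motor pushes the spindle poles apart, -0.40 (SE 0.32). Kif20a stood at 22.5, 48.7, 39.6, 45.6 and 24.4 CPM in EIC 1 to 5 and at 17.3, 11.9, 40.9, 25.7 and 9.07 CPM in 16IC 1 to 5. EIC 2 was highest and 16IC 5 lowest, and 29.3% of the exon bases of Kif20a are shared with Cdc23 on the opposite strand. The means were 36.2 ± 12.05 and 21.0 ± 12.8 CPM (SD, n = 5), a log2 difference of -0.79 (SE 0.41, edgeR adjusted p 0.420). Kif23 stood at 23.4, 21.7, 33.5, 40.1 and 15.3 CPM in EIC 1 to 5 and at 11.6, 13.0, 27.3, 20.8 and 9.84 CPM in 16IC 1 to 5. EIC 4 and EIC 3 were highest, and 16IC 5 lowest. Kif11 stood at 32.8, 33.0, 31.6, 56.8 and 30.6 CPM in EIC 1 to 5 and at 22.1, 26.5, 46.3, 32.4 and 12.4 CPM in 16IC 1 to 5. EIC 4 stood apart from the other EIC tumours, and 16IC 5 was lowest. The kinetochore genes Cenpf and Cenpa had estimates of -0.74 (SE 0.43) and -0.52 (SE 0.40), and Birc5, which encodes survivin, -0.36 (SE 0.35). Nusap1 and Tpx2, which encode proteins of spindle microtubules, were the exceptions in this group. The estimate was 0.28 (SE 0.41) for Nusap1. For Tpx2 it was 0.00 (SE 0.43), with a 95% interval of -0.96 to 0.96 and a sign below 0 with total-count scaling and limma voom. Nusap1 stood at 20.6, 19.1, 30.1, 35.3 and 18.9 CPM in EIC 1 to 5 and at 24.8, 19.8, 52.8, 44.1 and 9.43 CPM in 16IC 1 to 5. The highest levels were in 16IC 3 and 16IC 4, and without 16IC 3 the estimate was below 0.

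The activator of mitotic exit Cdc20 and the ubiquitin-conjugating enzyme Ube2c serve the same ligase, the anaphase-promoting complex. Cdc20 lies at 118432901 to 118437352 on chromosome 4, minus strand (GRCm38, ENSMUSG00000006398). Cdc20 stood at 38.0, 26.3, 74.8, 83.0 and 46.2 CPM in EIC 1 to 5 and at 18.8, 33.4, 35.6, 27.0 and 19.1 CPM in 16IC 1 to 5. EIC 4 and EIC 3 stood highest, and EIC 2 lay within the range of 16IC. With means of 53.7 ± 24.3 and 26.8 ± 7.80 CPM (SD, n = 5) in EIC and 16IC, the log2 difference was -1.003 with a 95% interval of -1.73 to -0.28 (edgeR adjusted p 0.290). DESeq2's adjusted p was 0.102, and 0.0116 without EIC 2, the only tumour whose omission let DESeq2 call Cdc20. The smallest edgeR adjusted p of Cdc20 with 1 tumour left out was 0.145. Ube2c stood at 54.5, 36.0, 79.9, 81.7 and 58.0 CPM in EIC 1 to 5 and at 49.1, 32.2, 129, 87.0 and 16.2 CPM in 16IC 1 to 5. The highest and the lowest tumour were both 16IC, and all EIC tumours lay between them. The log2 difference of Ube2c was 0.02 (95% interval -1.05 to 1.09, edgeR adjusted p 0.993), from means of 62.0 ± 19.1 and 62.8 ± 45.6 CPM (SD, n = 5). The exons of Ube2c overlap those of Tnnc2, a skeletal muscle troponin gene on the opposite strand, over 22.8% of their length, and muscle RNA differed between tumours as given above, so its counts are uncertain. The sign of its estimate was below 0 with total-count scaling and with limma voom. The part of muscle RNA in its values was not tested.

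The 3 markers of proliferation and chromatin had negative estimates, with a median of -0.68. Mki67 encodes the antigen Ki-67, used in pathology to count cycling cells. Mki67 stood at 99.4, 90.7, 249.8, 137 and 58.0 CPM in EIC 1 to 5 and at 84.5, 65.0, 108, 78.1 and 36.7 CPM in 16IC 1 to 5. The tumour EIC 3 was far above the rest, EIC 5 and 16IC 5 were low, and the genotypes overlapped. The means were 127 ± 74.2 and 74.5 ± 26.4 CPM (SD, n = 5), a log2 difference of -0.77 (SE 0.39, edgeR adjusted p 0.417). Top2a encodes DNA topoisomerase II alpha, which untangles the copied chromosomes. Top2a stood at 114, 85.9, 165, 179 and 78.5 CPM in EIC 1 to 5 and at 68.4, 84.3, 119, 79.8 and 51.2 CPM in 16IC 1 to 5. EIC 4, EIC 3 and 16IC 3 were highest and 16IC 5 lowest. With means of 125 ± 45.7 and 80.5 ± 24.9 CPM (SD, n = 5) in EIC and 16IC, the log2 difference was -0.63 with a 95% interval of -1.26 to -0.00 (edgeR adjusted p 0.381). Hmgb2, a chromatin protein gene, had 59.1 ± 32.5 CPM in the EIC tumours against 37.0 ± 13.8 CPM in 16IC (SD, n = 5 each). Its log2 difference was -0.68 (SE 0.37, edgeR adjusted p 0.442).

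**Figure D2:**
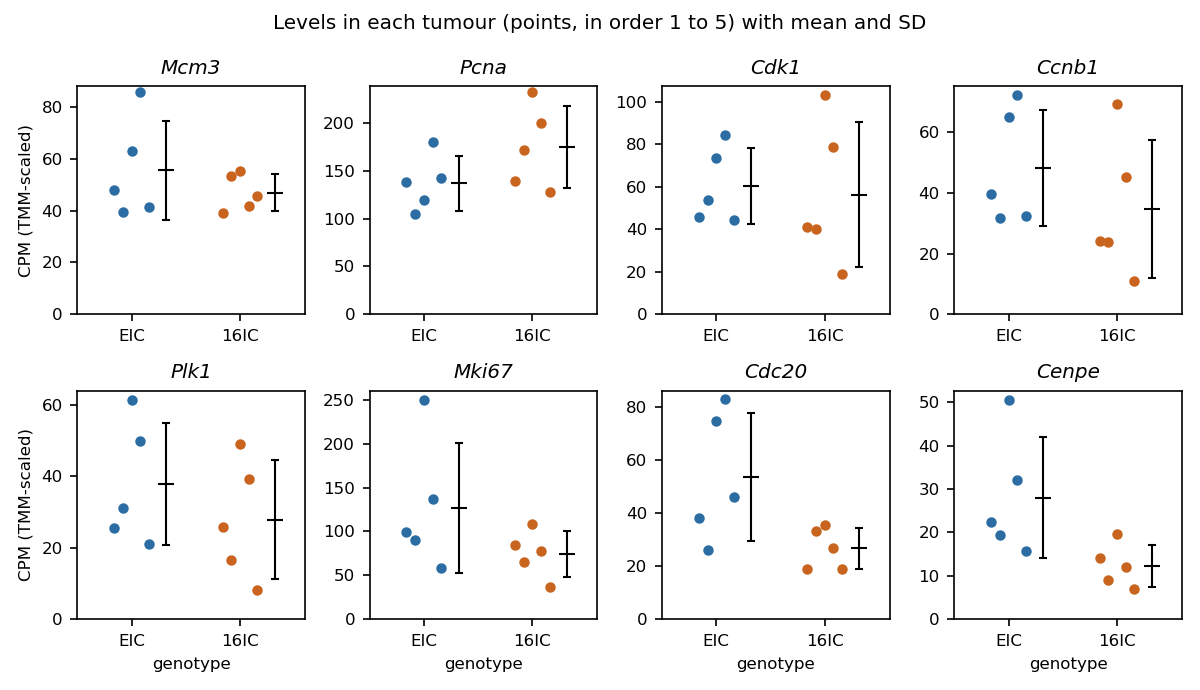
CPM (TMM-scaled, vertical axes from 0) of 8 genes in each of 5 EIC and 5 16IC tumours (points, tumours 1 to 5 from left to right), with mean and SD (bars). For Cenpe 4 of the 5 16IC tumours lie below all EIC tumours, while for Cdk1 the highest and the lowest tumour are both 16IC.

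The balance of replication and mitotic genes differed between tumours. The mean log2 CPM of 10 replication genes (Mcm2 to Mcm7, Pcna, Rrm1, Rrm2, Tyms) was 5.83, 5.79, 6.19, 6.54 and 5.74 in EIC 1 to 5 and 5.68, 6.04, 6.41, 5.94 and 5.61 in 16IC 1 to 5. That of 7 mitotic genes (Cdk1, Plk1, Aurka, Aurkb, Kif11, Kif20a, Kif23) was 4.77, 4.94, 5.41, 5.61 and 4.58 in EIC 1 to 5 and 4.39, 4.31, 5.54, 5.08 and 3.50 in 16IC 1 to 5. EIC 4, 16IC 3 and EIC 3 held the 3 highest means of both sets, and 16IC 5 the lowest of both. The replication mean differed by -0.08 between genotypes and the mitotic mean by -0.50. No p is given for these means, since the members were chosen with earlier results known.

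**Figure D3:**
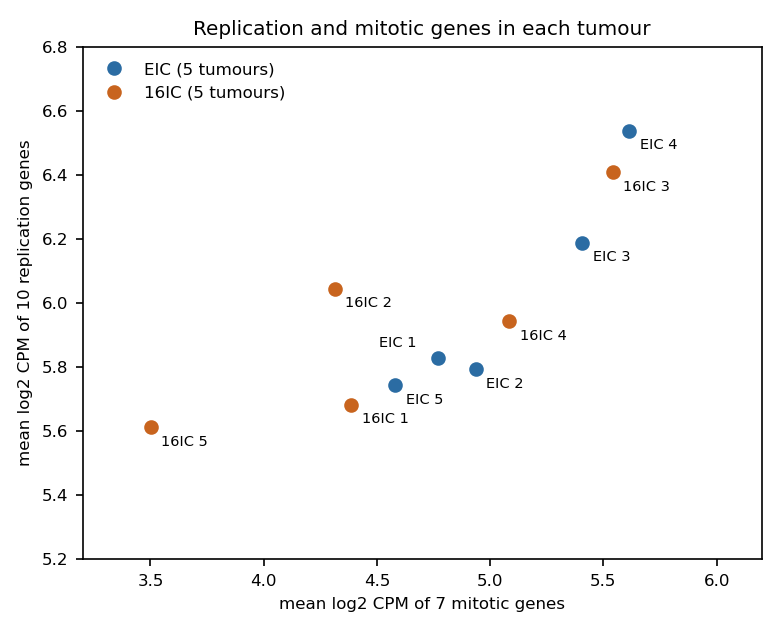
Mean log2 CPM of 10 replication genes (vertical axis) against that of 7 mitotic genes (horizontal axis), 1 point for each of 10 tumours coloured by genotype. 16IC 5 and 16IC 2 lie to the left, with mitotic means of 3.50 and 4.31 at replication means of 5.61 and 6.04.

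The replication mean minus the mitotic mean was 1.06, 0.86, 0.78, 0.92 and 1.16 in EIC 1 to 5 and 1.30, 1.73, 0.87, 0.86 and 2.11 in 16IC 1 to 5. EIC tumours kept within 0.38 of each other, while 16IC tumours spread over 1.25. On average it was 0.96 ± 0.15 in EIC and 1.37 ± 0.55 in 16IC (SD, n = 5 each), a difference of 0.42. 16IC 3 and 16IC 4 lay inside the EIC range, and 16IC 1, 16IC 2 and 16IC 5 above it. Without 16IC 5 the difference between genotypes was 0.23, and without 16IC 3 or 16IC 4 it was 0.54. It is not larger than the spread among the 16IC tumours.

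Summed levels of other cell types' markers also differed among the 16IC tumours, and some sums followed this balance. Fibroblast markers summed to 487 CPM in 16IC 3 and 1274 CPM in 16IC 4, and to 2762, 4127 and 3908 CPM in 16IC 1, 16IC 2 and 16IC 5, the tumours with the lowest mitotic means. Adipocyte markers summed to 10.9 and 35.9 CPM in 16IC 3 and 16IC 4 and to 43.2, 358 and 203 CPM in the other 3. Endothelial (84.8 and 182 against 241, 221 and 238 CPM) and macrophage markers (253 and 286 against 322, 483 and 604 CPM) had the same split in their sums. Skeletal muscle markers did not, with 1.09 and 64.6 CPM in 16IC 3 and 16IC 4 and 369, 22.2 and 9.02 CPM in the other 3, nor did milk markers, with 15586 and 21271 against 51850, 21531 and 17861 CPM. Not every gene followed its sum. The fibroblast genes Dcn and Lum were highest in 16IC 4 among the 16IC tumours. The fibroblast gene Fap, the macrophage genes Cd68 and Cd163 and the endothelial genes Cdh5 and Esam did not have the split either. In EIC 1 to 5 the fibroblast sums were 8282, 2211, 3328, 5603 and 3356 CPM, and EIC 4, with the highest mitotic mean, had the second-highest sum. Among EIC tumours EIC 4 also had the highest adipocyte (315 CPM) and endothelial sums (252 CPM) and the second-highest macrophage sum (541 CPM). EIC 3, next in mitotic mean among EIC tumours, had the lowest adipocyte (25.9 CPM) and second-lowest macrophage sum (350 CPM). The part of other cell types in the levels of the members was not tested.

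Genes that are no members were set out in the same way. For 48 other replication genes minus 58 other mitotic genes, the difference was 0.23, 0.15, -0.17, -0.03 and 0.40 in EIC 1 to 5 and 0.19, 0.65, -0.20, 0.03 and 1.01 in 16IC 1 to 5. 16IC 5 and 16IC 2 stood highest, as for the members. 16IC 3 and EIC 3 were lowest here, while for the members EIC 3 and EIC 2 were. The mean was 0.12 ± 0.22 in EIC and 0.34 ± 0.49 in 16IC, so the gap of 0.22 between genotypes was no larger than either SD. These lists come from the same libraries and are no independent measurement of the tumours.

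The heat map shows each gene in each tumour. The highest level of a member was in EIC 4 for 19 genes, in 16IC 3 for 14 and in EIC 3 for 6, with EIC 2 and 16IC 4 highest for 1 each. The lowest was in 16IC 5 for 29 genes and in 16IC 1 for 7. In 16IC 5, Cdk1 stood at 18.9 CPM, below the 40.1 to 103 CPM of the other 16IC tumours. Its Mcm4 level, 47.1 CPM, lay within the 40.1 to 56.4 CPM of those tumours.

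**Figure D4:**
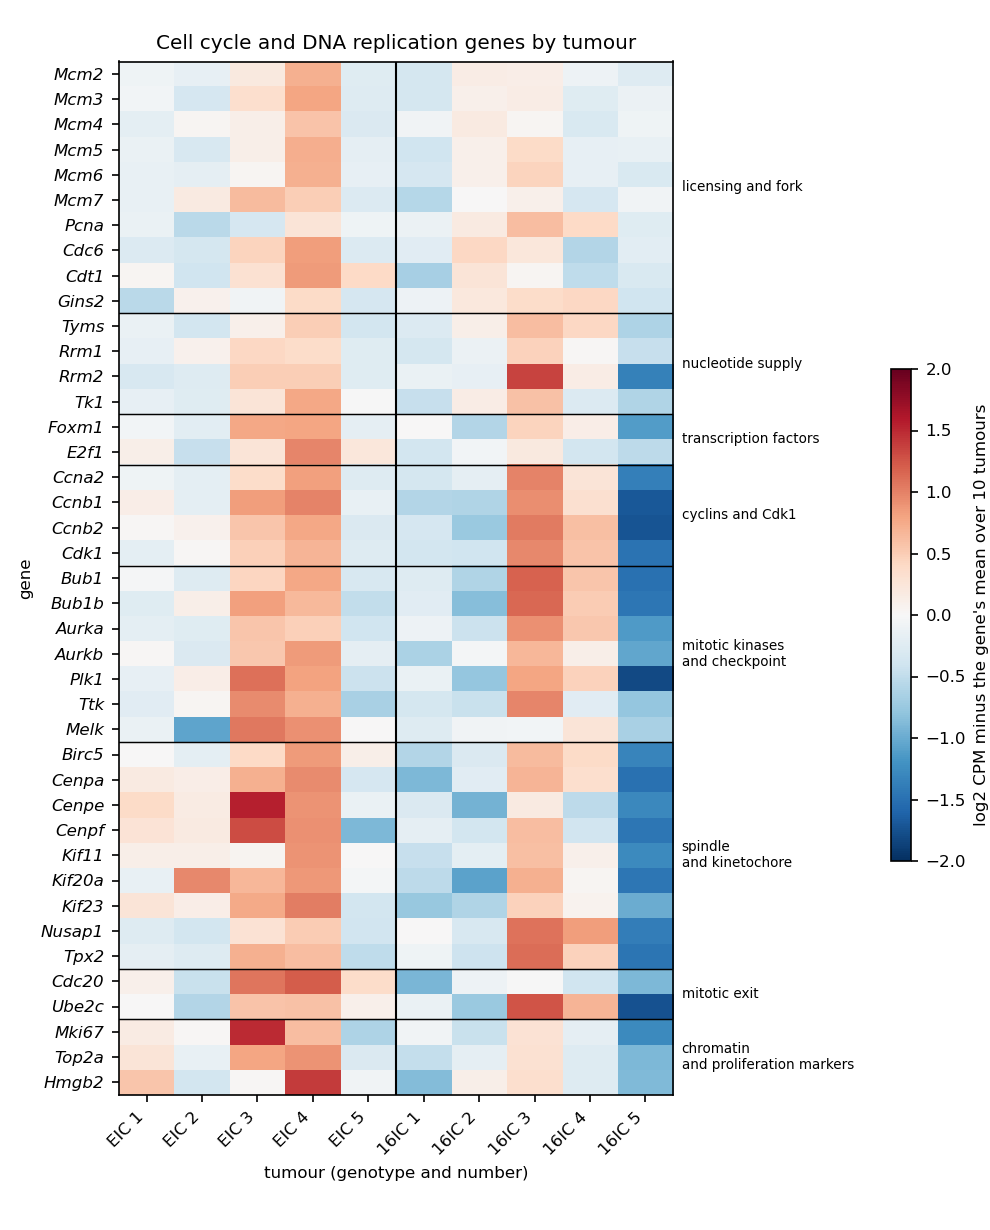
Log2 CPM minus the gene's mean over 10 tumours (colour, red above and blue below the mean) for 41 genes (rows, by role) in 5 EIC and 5 16IC tumours (columns). EIC 3, EIC 4 and 16IC 3 are red through most rows, and the blue of 16IC 5 is deep in the cyclin and mitotic rows and pale in the Mcm rows.

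The spread between tumours of 1 genotype differed by role. Given as the highest over the lowest CPM among 5 tumours, Mcm2 to Mcm7 had a median of 1.91 in EIC and 1.51 in 16IC, narrower in 16IC for 6 of 6. The 4 genes of Cdk1 and its cyclins had 2.09 and 5.85, and the 7 mitotic genes 2.16 and 4.14, wider in 16IC for 7 of 7. Rrm1, Rrm2 and Tyms were wider in 16IC too (1.77 and 2.36). The same ratio was 2.04 and 1.98 at the median of all genes tested, with 48.8% wider in 16IC. Over the 41 members it was 2.16 and 2.96, and 25 were wider in 16IC. The narrower Mcm ratios in 16IC rested largely on EIC 4, the highest EIC tumour for Mcm2 to Mcm6. Without EIC 4 the order was reversed, with EIC narrower, for Mcm2, Mcm4, Mcm5 and Mcm6. Mcm6 in EIC then ran from 64.4 to 75.0 CPM, against 58.2 to 99.4 CPM in 16IC. Mcm5 ran from 46.9 to 63.8 against 44.3 to 76.7 CPM. Mcm2 ran from 42.4 to 57.1 against 39.3 to 55.8 CPM, and Mcm4 from 40.8 to 54.1 against 40.1 to 56.4 CPM. Only Mcm3 and Mcm7 stayed narrower in 16IC. Mcm3 then ran from 39.5 to 62.9 CPM in EIC, against 39.0 to 55.2 CPM in 16IC.

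The size of the wider ratios in 16IC rested in large part on 1 library. Without 16IC 5, the median ratio in 16IC was 2.54 in place of 4.14 for the 7 mitotic genes and 2.74 in place of 5.85 for Cdk1 and its cyclins, still wider than among the 5 EIC tumours for 6 of 7 and 4 of 4. Over the 41 members it became 2.10, with 21 wider in 16IC. Of the 58 other mitotic genes, 42 were wider in 16IC with all tumours (medians of 2.35 in EIC and 3.44 in 16IC) and 21 without 16IC 5 (2.22 in 16IC). Of all genes tested, 42.8% were wider in 16IC without 16IC 5. The largest ratio was that of Ube2c, 8.01 in 16IC and 2.27 in EIC. With all tumours, the reverse order, wider in EIC, held for 16 members. These were the 6 Mcm genes with Cdc6, Cdt1, Gins2, E2f1, Melk, Cdc20, Cenpe, Cenpf, Hmgb2 and Mki67. Melk had ratios of 4.36 in EIC and 1.89 in 16IC, and Mki67 of 4.31 and 2.96; these 2 were chosen after their values were seen.

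**Figure D5:**
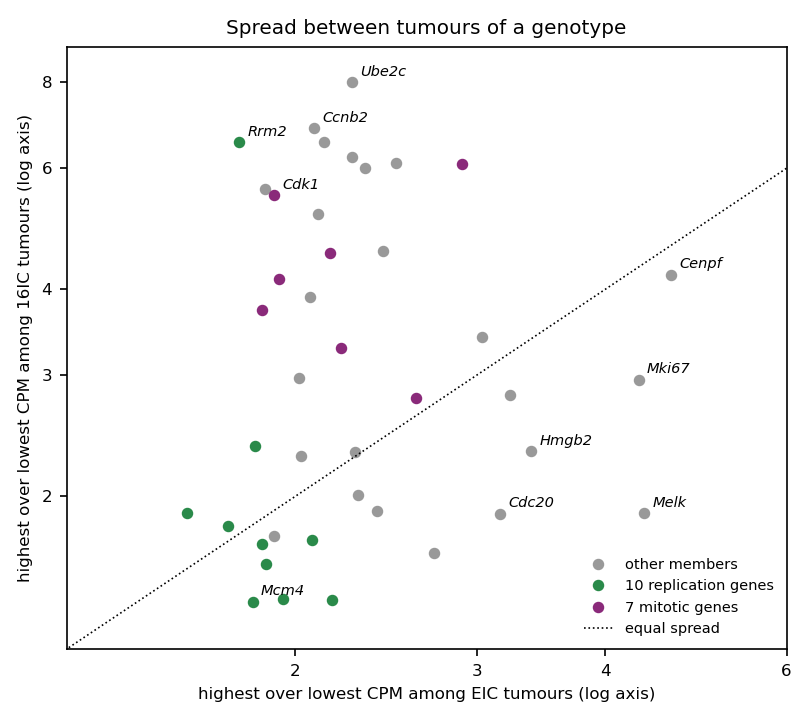
Highest over lowest CPM among the 5 16IC tumours (vertical, log axis) against that among the 5 EIC tumours (horizontal, log axis) for 41 genes; the dotted line marks equal spread. All 7 mitotic genes lie above the line, and all 6 Mcm genes below it. The EIC ratios of Mcm2 to Mcm6 include EIC 4, their highest EIC tumour. Without it, those of Mcm2, Mcm4, Mcm5 and Mcm6 fall below their 16IC ratios.

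The same ratio was taken by the promoter words shown above. The 7 members with an E2F word (Cdc6, Cdk1, Cdt1, Mcm3, Mcm5, Mcm6, Mcm7) had a median ratio of 1.73 in 16IC, from 1.42 to 5.48. The top value was that of Cdk1. Both Cdk1 and Mcm5 (ratio 1.73) also hold a CHR word in the window. The 18 members with CHR and CCAAT and no E2F word had a median of 3.93, from 1.42 (Mcm2) to 8.01 (Ube2c). Their median log2 differences between genotypes were -0.19 and -0.46. In EIC the median ratios were 2.08 and 2.47. Mcm3, Mcm5, Mcm6 and Mcm7 are also among the Mcm genes above, so the E2F class partly repeats their ratios. The EIC ratios of Mcm3, Mcm5 and Mcm6 include EIC 4, and without it Mcm5 and Mcm6 were wider in 16IC. Without 16IC 5, the median in 16IC was 1.73 for the E2F class and 2.45 for the other, which was then wider than in EIC for 9 of 18 genes. These are counts over chosen genes, with no test.

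Gene-wise variation was also taken from edgeR's fit. The biological coefficient of variation, the relative SD between tumours of a genotype beyond counting error, was 33.6% at the median of all genes tested and 41.01% over the members. It was 27.3% for the 10 replication genes, 42.4% for the 7 mitotic genes, and ran from 24.5% (Mcm4) to 53.6% (Ube2c).

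Members were high and low in the same tumours. With each genotype's mean removed, the Pearson r between pairs of members over 10 tumours had a median of 0.75 over 820 pairs, 0.89 within the mitotic set (21 pairs), 0.74 within the replication set (45 pairs) and 0.67 between the sets (70 pairs). All pairs share the same libraries and scaling, and these values are a description.

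Levels can be compared between genes only per length, here as the authors' FPKM averaged over the 10 tumours. Pcna had the highest level of the members, 62.8 FPKM, followed by Ccnb2 (23.4 FPKM) and Ube2c (23.2 FPKM). Cenpf (1.87 FPKM) and Cdc6 (1.89 FPKM) were lowest. The helicase subunits ranged from 7.15 FPKM (Mcm2) to 19.5 FPKM (Mcm7).

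The rest of the pathway showed no call either. Of 48 other replication genes, edgeR called 0 over all genes tested, with 14 higher and 34 lower in 16IC and a median log2 difference of -0.14. At an unadjusted p under 0.05 by edgeR stood 1 higher and 2 lower of the 48, against 6.84% and 6.29% of all genes tested. Rpa1, a subunit of the single-strand binding protein RPA, had 71.5 ± 14.3 CPM in the EIC tumours against 97.3 ± 6.72 CPM in 16IC (SD, n = 5 each). Its log2 difference was 0.44 (SE 0.14, edgeR adjusted p 0.290), and that of Orc5, of the origin recognition complex, 0.34 (SE 0.17). Pole, the catalytic subunit of DNA polymerase epsilon, had 20.9 ± 11.6 CPM in the EIC tumours against 12.3 ± 1.62 CPM in 16IC (SD, n = 5 each). Its log2 difference was -0.76 (SE 0.34, edgeR adjusted p 0.373), and that of Dbf4, the activator of the kinase CDC7, -0.62 (SE 0.28).

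Of 58 other mitotic genes, 12 were higher and 46 lower in 16IC, with a median of -0.35 and 0 calls. At an unadjusted p under 0.05 by edgeR stood 6 of the 58, all lower. The same threshold took 13.1% of all genes tested, 6.29% as lower. Zwint, a kinetochore protein gene, had 78.0 ± 11.9 CPM in the EIC tumours against 55.8 ± 4.88 CPM in 16IC (SD, n = 5 each). Its log2 difference was -0.49 (SE 0.13), and the edgeR adjusted p of 0.270 was the smallest of the pathway lists. Kif2c, a kinesin that removes tubulin from microtubule ends, had 20.05 ± 11.5 CPM in the EIC tumours against 9.10 ± 4.05 CPM in 16IC (SD, n = 5 each), a log2 difference of -1.14 (SE 0.45, edgeR adjusted p 0.342). Kif18a (0.41, SE 0.32) and Wee1, whose kinase restrains CDK1 (0.16, SE 0.19), had the smallest p among those with positive estimates. DESeq2 and limma voom also called 0 genes in either list.

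The 18 regulators of these programmes had a median log2 difference of -0.07 and a range from -0.77 to 0.48, with 7 higher, 11 lower, 0 calls by edgeR, DESeq2 or limma voom and 0 at an unadjusted p under 0.05. Rbl2, which encodes the pocket protein p130, had a log2 difference of 0.31 (SE 0.16, edgeR adjusted p 0.417), and the MuvB subunit gene Lin52 0.48 (SE 0.25, edgeR adjusted p 0.425). The lowest estimate was that of Rb1, the gene of the retinoblastoma protein (-0.77, SE 0.58, edgeR adjusted p 0.567), named after its value was seen. Tfdp1, the partner of E2F proteins, had -0.32 (SE 0.19, edgeR adjusted p 0.476) and Lin54, the CHR-binding subunit of MuvB, -0.25 (SE 0.16, edgeR adjusted p 0.494).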

How the data were processed

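RNA was sequenced in 10 mammary tumour libraries, 5 EIC and 5 16IC. Per the submitters' processing notes, Trimmomatic, STAR and HTSeq were used with GRCm38/mm10; versions, annotation release and strand setting do not appear in the sources used here. The authors deposited, per the file headers, raw counts per gene, normalized counts (a signal equal to the count divided by DESeq2's size factor, as a check on the values showed), FPKM, and a comparison with log2 fold changes and p-values. Raw counts were tested with edgeR 4.0.16 (TMM scaling, filterByExpr with a minimum count of 10, robust quasi-likelihood test, R 4.3.3), with Benjamini-Hochberg adjustment over all 14915 genes tested. Total counts were 14813940 to 16947400 per library, and the tested genes held 99.8% of them. Log2 CPM used a prior count of 2. Alternatives were DESeq2 1.42.0, limma 3.58.1 voom with quality weights, total-count scaling, other filters, and leaving out each tumour. The scripts' tests were tested on simulated data. Gene overlaps were read from GENCODE M21 and promoters from RefSeq. Genes are compared between each other only in FPKM.

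The members and gene lists were chosen with earlier results of these data known. Values per tumour are given for Mki67, Top2a, replication and mitotic genes the text turns on, and members with the 3 largest differences each way. In other lists the 2 genes with the smallest p in each direction are named. No 2 libraries agreed within sampling noise (the smallest chi-square over its degrees of freedom was 26.3), so each counts once.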

Additional observations from a re-analysis of the deposited data

Results flagged for a closer look

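In EIC, 1 tumour stood apart from the other 4 for 2 of the 90 gene and genotype groups checked by Dixon's ratio, and chance alone flags about 1 in 20 groups. Mcm6 was at 6.91 log2 CPM in EIC 4, against 6.02 to 6.23 in the other EIC tumours. Kif11 was at 5.83 log2 CPM in EIC 4, against 4.94 to 5.05 in the others. EIC 4 held the highest level of 19 of the 41 members.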

How the results depend on the processing

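None of the planned settings called a member. After the data were seen, DESeq2 was also run with each tumour left out. It called 2 members without EIC 2 (Cenpe and Cdc20), 1 without EIC 5 and 1 without 16IC 3 (both Cenpe), and 0 otherwise. The share of all genes called in these runs was not recorded, so these counts have no background beside them. With all tumours DESeq2 called 2.11% of genes. Of log2 differences near 0, limma voom reversed Aurka (-0.13), Rrm2 (-0.12), Tpx2 (-0.20) and Ube2c (-0.41), total-count scaling Aurka (-0.024), Tpx2 (-0.058) and Ube2c (-0.039), no filter Bub1 (0.0049), and a filter of 1 CPM in 5 libraries Tpx2 (-0.0046). With 1 tumour left out, 26 members kept their sign and 15 did not. Ranges were -0.25 to 0.23 (Aurka), -0.45 to 0.21 (Bub1), -0.58 to 0.086 (Bub1b), -0.49 to 0.086 (Ccna2), -0.60 to 0.034 (Ccnb2), -0.33 to 0.035 (Cdc6), -0.43 to 0.12 (Cdk1), -0.20 to 0.022 (Mcm4), -0.24 to 0.092 (Mcm5), -0.26 to 0.083 (Mcm6), -0.015 to 0.51 (Nusap1), -0.36 to 0.37 (Rrm2), -0.38 to 0.23 (Tpx2), -0.016 to 0.30 (Tyms) and -0.43 to 0.26 (Ube2c). The cause was not tested. The replication minus mitotic difference ran from 0.23 to 0.54. No paired analysis was possible because the numbers only name the tumours of a genotype and pair no mice.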

Other observations

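Histone genes were listed by the Hist prefix of their symbols and not checked gene by gene for replication-dependent expression. Replication-dependent histone mRNAs mostly lack a poly(A) tail, and the listed genes were largely at low counts: 14 of 57 passed the filter. Of these, 4 were higher and 10 lower in 16IC, the median log2 difference was -0.32, and edgeR, DESeq2 and limma voom called 0. At an unadjusted p under 0.05 by edgeR were 2 of the 14, both higher in 16IC. That threshold took 13.1% of all genes tested, 6.84% as higher. Hist2h2be had 3.01 ± 2.54 CPM in the EIC tumours against 9.29 ± 4.57 CPM in 16IC (SD, n = 5 each), a log2 difference of 1.62 (SE 0.54, edgeR adjusted p 0.290), and Hist1h2al one of 0.75 (SE 0.34, edgeR adjusted p 0.379). Hist1h4i and Hist1h1d had log2 differences of -0.60 (SE 0.38) and -0.98 (SE 0.69). The summed level of the histone genes was 104, 219.5, 112, 132 and 87.8 CPM in EIC 1 to 5 and 91.7, 75.3, 243, 126 and 56.1 CPM in 16IC 1 to 5. The high tumours were 16IC 3 and EIC 2, and the lowest was 16IC 5, as for most members.

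Genotype means removed, each member's log2 CPM was set against the mean of the replication set and of the mitotic set, itself left out. Mcm2 to Mcm7 were closer to the replication mean, while Pcna, Tyms, Rrm1 and Rrm2 were closer to the mitotic mean. The other Mcm genes make up most of the set that each Mcm gene was compared with, so their closeness is partly built in. Pearson r with the mitotic and replication means was nearly equal for Pcna (0.733 and 0.727). It was close for Tyms (0.930 and 0.893) and Rrm1 (0.919 and 0.880), and further apart for Rrm2 (0.951 and 0.729). Of the 7 mitotic genes, 6 were closer to the mitotic mean and Aurkb to the replication mean. Of the 24 remaining members, 16 were closer to the mitotic mean and 8 to the replication mean (Top2a, E2f1, Cdc20, Cdc6, Cdt1, Tk1, Melk and Hmgb2). All values share the same 10 libraries and are a description.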
